A study of Mus musculus with 42 samples.

Results

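The 10 genes described here, which textbooks list as direct targets of the glucocorticoid receptor, were followed across every group of a mouse liver study. They are Fkbp5, Tsc22d3, Zbtb16, Sgk1, Klf9, Dusp1, Errfi1, Ddit4, Cebpd and Zfp36. The genes were chosen by symbol, and all 10 were found among the 55573 gene IDs of both deposited count tables, 1 table for each arm of the study. All 10 passed the filter on low counts in both arms. The study measured liver mRNA of male C57B6/J mice and addressed crosstalk between glucocorticoid and androgen signalling. Corticosterone (CORT) is the main glucocorticoid of mice, and enzalutamide (ENZA) is an antiandrogen drug. In the acute arm, 6 mice each were given vehicle, CORT, ENZA or CORT+ENZA, which makes 24 libraries. In the chronic arm, 6 mice each were given vehicle, CORT or CORT+ENZA, which makes 18 libraries. The chronic libraries include no group given ENZA alone. In that arm an effect of ENZA by itself cannot be told apart from a change in the CORT response. The sources used here give no dose, route, duration, age or time of day of collection. Each library was taken as 1 mouse, and the p-values measure the spread between these libraries.

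The glucocorticoid receptor is a nuclear receptor that waits in the cytoplasm in a complex with heat shock proteins. Once it binds hormone it enters the nucleus, binds DNA as a dimer and raises or lowers transcription of nearby genes, within hours for the genes described here. In liver it is known for raising genes of gluconeogenesis and amino acid breakdown and for damping inflammatory signals. Several of its targets hold the response in check, at the receptor itself or further downstream.

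By role the 10 genes fall into 4 sets. Fkbp5 encodes a co-chaperone that lowers the affinity of the receptor for hormone, a feedback arm of the pathway. Tsc22d3 (also called GILZ), Dusp1 and Zfp36 damp inflammatory signalling: Tsc22d3 encodes a leucine zipper protein, Dusp1 a phosphatase of MAP kinases, and Zfp36 (tristetraprolin) a protein that binds and destabilizes AU-rich mRNAs. Zbtb16 (PLZF), Klf9 and Cebpd encode transcription factors. Sgk1, Errfi1 and Ddit4 act in kinase signalling: Sgk1 is a serum- and glucocorticoid-regulated kinase, Errfi1 (Mig6) encodes an inhibitor of the EGF receptor, and Ddit4 (REDD1) encodes an inhibitor of mTOR complex 1.

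The start regions of the genes differed in the letters that the receptor is known to bind. RefSeq promoter windows of 300 bases, 250 before and 50 after a start site on GRCm38.p6, were at hand for 8 of the 10 genes, 16 windows in all. They were searched on both strands for the 6 letters TGTTCT, called an arm here, and for an arm that follows its own reverse complement after a gap of any 3 bases, which counts as 2 arms. They were also searched for the cAMP-response letters TGACGTCA. At least 1 arm was found in 4 of the 16 windows, against 19% of all 32851 mouse windows. These 4 windows belonged to Sgk1 and Tsc22d3 only, and Sgk1 had more windows than any other gene. The full palindrome of 12 matching letters was found in 1 Sgk1 window, chr10:21993640-21993939 on the plus strand, and in 3 of all windows (0.00913%). The TGACGTCA letters were found in the Dusp1 window, chr17:26508423-26508722 on the minus strand, and in an Errfi1 window, chr4:150854820-150855119 on the plus strand, against 1.79% of all windows. A Tsc22d3 window, chrX:140600473-140600772 on the minus strand, held 1 arm, and the Fkbp5 window, chr17:28486100-28486399 on the minus strand, held none of these letters. The 4 windows below are printed because they span that range, from the full palindrome to no match. Capitals mark the arms, on either strand, with the 3 bases between them in the Sgk1 palindrome, and TGACGTCA in Dusp1. A match is a description of letters and not of a bound site.
Sgk1: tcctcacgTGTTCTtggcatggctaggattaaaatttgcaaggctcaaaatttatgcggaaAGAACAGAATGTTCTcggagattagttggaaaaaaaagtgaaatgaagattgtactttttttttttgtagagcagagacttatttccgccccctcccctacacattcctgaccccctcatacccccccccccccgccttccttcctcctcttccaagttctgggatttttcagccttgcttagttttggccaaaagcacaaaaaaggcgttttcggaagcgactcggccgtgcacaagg
Tsc22d3: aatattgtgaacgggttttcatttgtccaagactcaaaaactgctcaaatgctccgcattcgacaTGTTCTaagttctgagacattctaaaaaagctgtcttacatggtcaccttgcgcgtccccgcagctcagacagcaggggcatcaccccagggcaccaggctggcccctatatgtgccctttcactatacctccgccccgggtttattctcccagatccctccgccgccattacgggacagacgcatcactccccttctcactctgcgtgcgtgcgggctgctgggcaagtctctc
Dusp1: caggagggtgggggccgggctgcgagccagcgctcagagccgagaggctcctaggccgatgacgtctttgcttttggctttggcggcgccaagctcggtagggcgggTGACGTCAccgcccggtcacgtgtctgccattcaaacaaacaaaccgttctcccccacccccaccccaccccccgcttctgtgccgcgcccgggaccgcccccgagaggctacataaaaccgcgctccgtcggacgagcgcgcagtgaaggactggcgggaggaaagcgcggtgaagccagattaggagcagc
Fkbp5: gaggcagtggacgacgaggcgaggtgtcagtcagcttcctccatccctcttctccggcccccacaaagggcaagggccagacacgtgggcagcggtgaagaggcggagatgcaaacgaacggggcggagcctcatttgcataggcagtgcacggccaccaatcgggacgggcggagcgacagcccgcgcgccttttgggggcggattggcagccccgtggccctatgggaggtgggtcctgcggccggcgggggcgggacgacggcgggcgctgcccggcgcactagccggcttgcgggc

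Library depth was even: counts assigned to genes ran from 18674151 to 20464521 per acute library and from 15381724 to 19581723 per chronic library. The scarcest of the 10 genes, Cebpd, still had 28 or more counts in every library. Levels are given as CPM, counts scaled to library size with TMM factors. Summed CPM of 6 hepatocyte markers ran from 53480 to 133500, against 0.217 to 7.03 for 7 T and NK cell markers. Of 5 B cell markers tested, 4 were lower in acute CORT than in acute vehicle mice, where 0.67% of all genes were, and 5 in the chronic arm, where 9.29% of all genes were. In the chronic arm 6 of 6 tested were lower without vehicle mice 10 to 12, where 8.1% of all genes were, and 4 of 5 without mice 13 to 15, where 5.58% were. Their sums were at most 13.7 CPM in any library, and their part in the results was not tested. RNA was extracted with different kits in the 2 arms, so levels are set side by side only within an arm. Libraries are named below by group and mouse number.

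The chronic vehicle mice fell apart before any treatment was compared. Mice 10, 11 and 12 did not overlap mice 13, 14 and 15 in CPM for 7 of the 10 genes, where 25.2% of all 13099 genes tested showed such a gap. Fkbp5 stood at 42.7 to 66.1 CPM in mice 10 to 12 and at 10.0 to 15.3 CPM in mice 13 to 15. Zbtb16 (43.8 to 75.9 against 10.5 to 15.1 CPM), Klf9 (172 to 267 against 91.4 to 134 CPM) and Zfp36 (118 to 166 against 28.3 to 66.0 CPM) were also higher in mice 10 to 12. Tsc22d3 went the other way, at 61.5 to 90.9 CPM in mice 10 to 12 and 172 to 233 CPM in mice 13 to 15. So did Sgk1, with 6.97 to 15.1 against 24.3 to 41.3 CPM, and Ddit4, with 2.83 to 6.91 against 8.40 to 20.9 CPM. Dusp1, Errfi1 and Cebpd overlapped. No gene of the 10 showed a gap between CORT mice 1 to 3 and 25 to 27 (27.8% of all genes did) or between CORT+ENZA mice 4 to 6 and 16 to 18 (14.5% of all genes did). The mouse numbers are not labelled as a batch, and these sets were noticed in the values.

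Transcripts of the circadian clock moved with the same split. Dbp, a clock output factor that cycles strongly in liver, stood at 70.35 to 142 CPM in vehicle mice 10 to 12 and at 1.76 to 6.34 CPM in mice 13 to 15. Arntl (Bmal1), which peaks in antiphase to Dbp, stood at 4.49 to 10.9 and 21.1 to 26.6 CPM. CORT mouse 1 (Dbp 7.60, Arntl 22.4 CPM) and CORT+ENZA mouse 18 (Dbp 8.49, Arntl 19.8 CPM) lay near vehicle mice 13 to 15 in these 2 genes, but not in Tef, another clock output factor, with 121 and 74.5 CPM against 36.7 to 46.6 CPM. Clock genes also differed between sets of treated mice. Dbp stood at 7.60 to 39.5 CPM in CORT mice 1 to 3 and at 42.5 to 73.7 CPM in mice 25 to 27, while Arntl overlapped. In CORT+ENZA mice 4 to 6 and 16 to 18, Dbp stood at 87.75 to 110 and 8.49 to 66.1 CPM, and Arntl at 1.75 to 3.54 and 6.20 to 19.8 CPM. In the acute arm Dbp stayed between 68.8 and 272 CPM in every library. The summed CPM of 13 immediate early genes, a class induced within minutes by growth signals and stress, was 239 to 392 in vehicle mice 10 to 12 and 104 to 130 in mice 13 to 15. The part of the clock genes and of the immediate early genes in the results was not tested. The chronic calls against vehicle are therefore set beside those with either set of 3 vehicle mice left out, an alternative chosen after seeing the data.

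**Figure D1:**
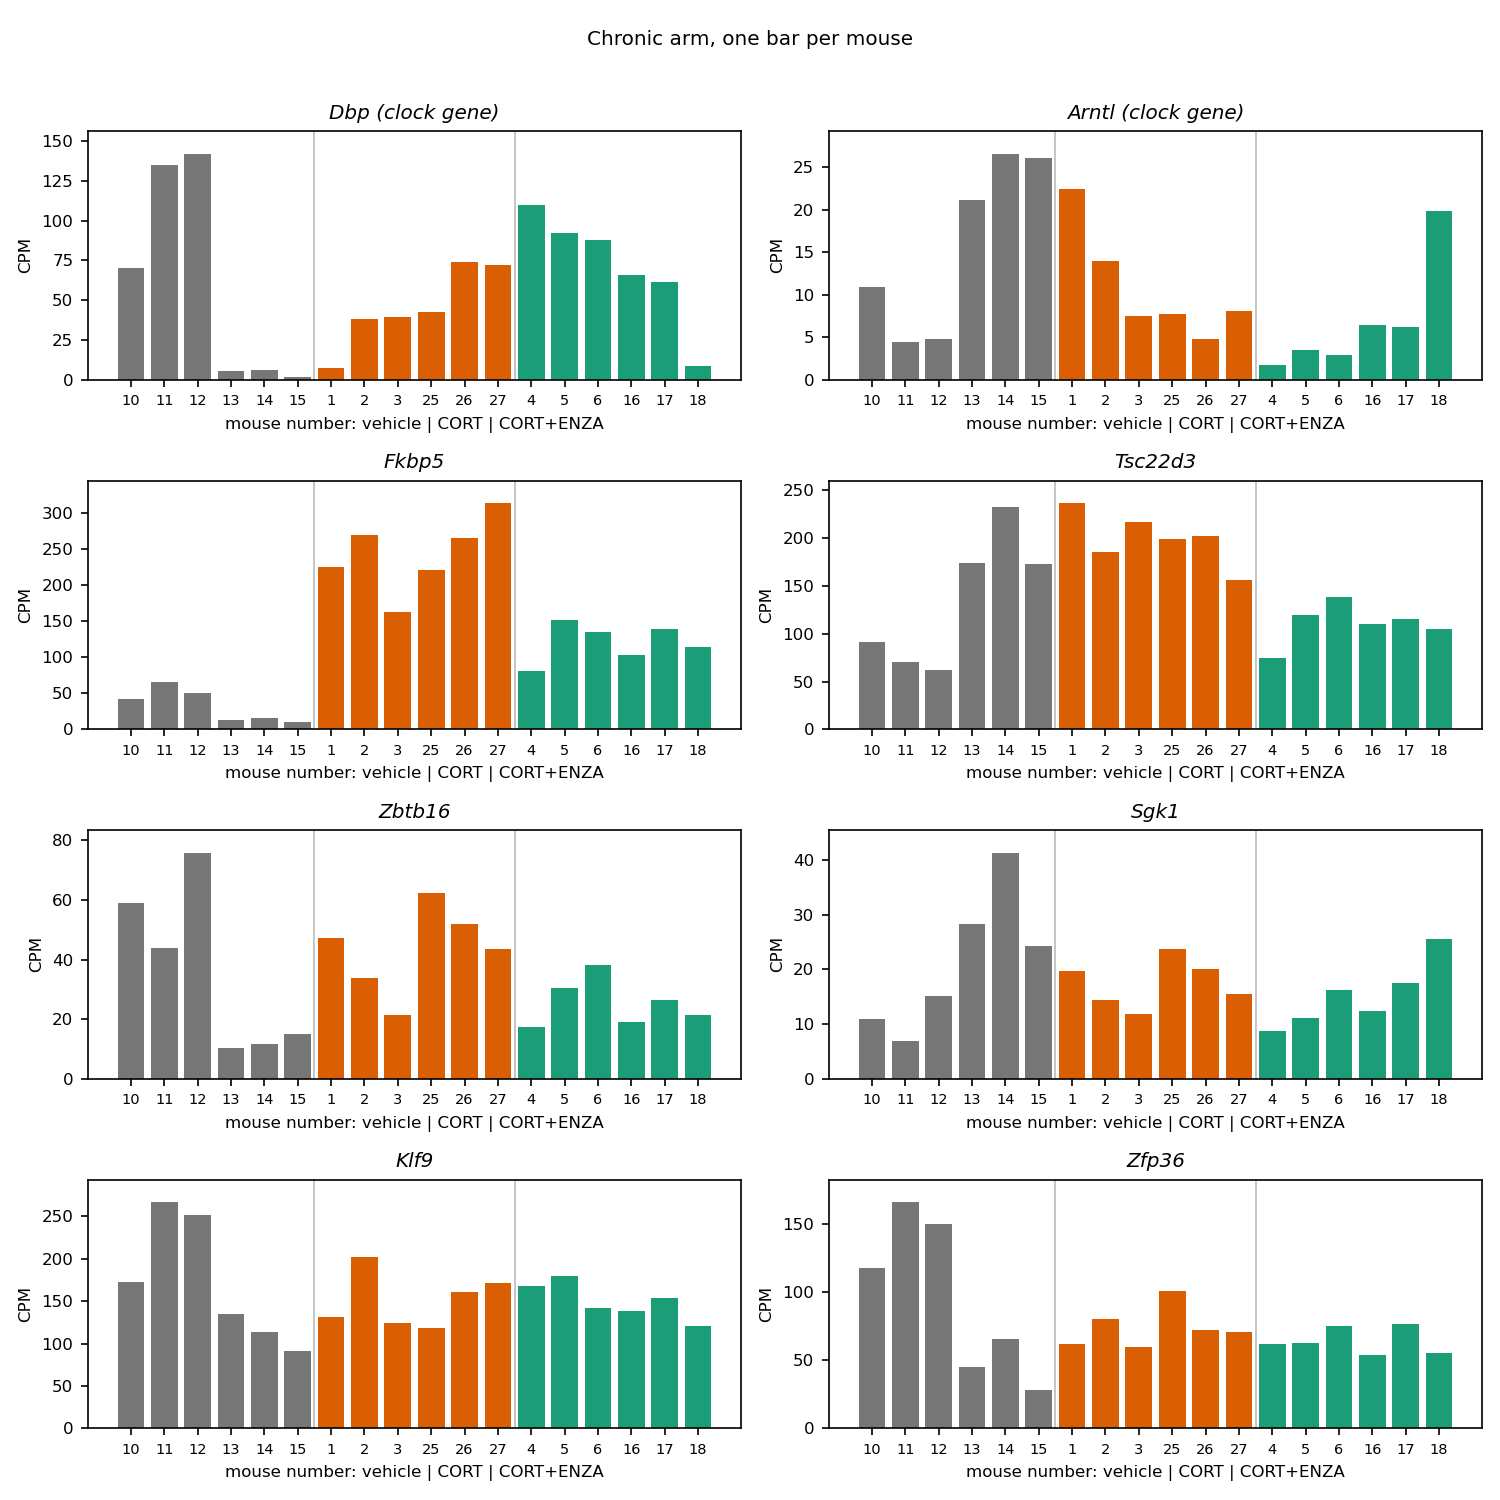
CPM of 2 clock genes and 6 glucocorticoid targets in each chronic mouse, 1 bar per mouse, ordered by group and mouse number. Vehicle mice 13, 14 and 15 sit at 1.76 to 6.34 CPM of Dbp and at 10.0 to 15.3 CPM of Fkbp5, below vehicle mice 10, 11 and 12 in both.

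Per kilobase of exon, Errfi1 was the most abundant of the 10 in all 7 groups. It ran from 142 (ENZA mice) to 290 CPM per kb (CORT mice) in the acute arm. In the chronic arm it ran from 285 (vehicle mice) to 378 CPM per kb (CORT mice). Cebpd was the least abundant, and tied with Zbtb16 in acute vehicle mice at 1.77 CPM per kb. Cebpd ran from 1.31 (ENZA mice) to 2.17 CPM per kb (CORT mice) in the acute arm. In the chronic arm it ran from 0.677 (vehicle mice) to 1.64 CPM per kb (CORT mice). Klf9 took rank 2 or 3 in every group, at 24 to 31.4 CPM per kb in the acute and 31.2 to 35.6 CPM per kb in the chronic arm. Variation between mice differed by gene: in acute vehicle mice the coefficient of variation ran from 16.1% for Klf9 to 56.4% for Dusp1, and in chronic vehicle mice from 26.1% for Cebpd to 77.1% for Zbtb16.

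**Figure D2:**
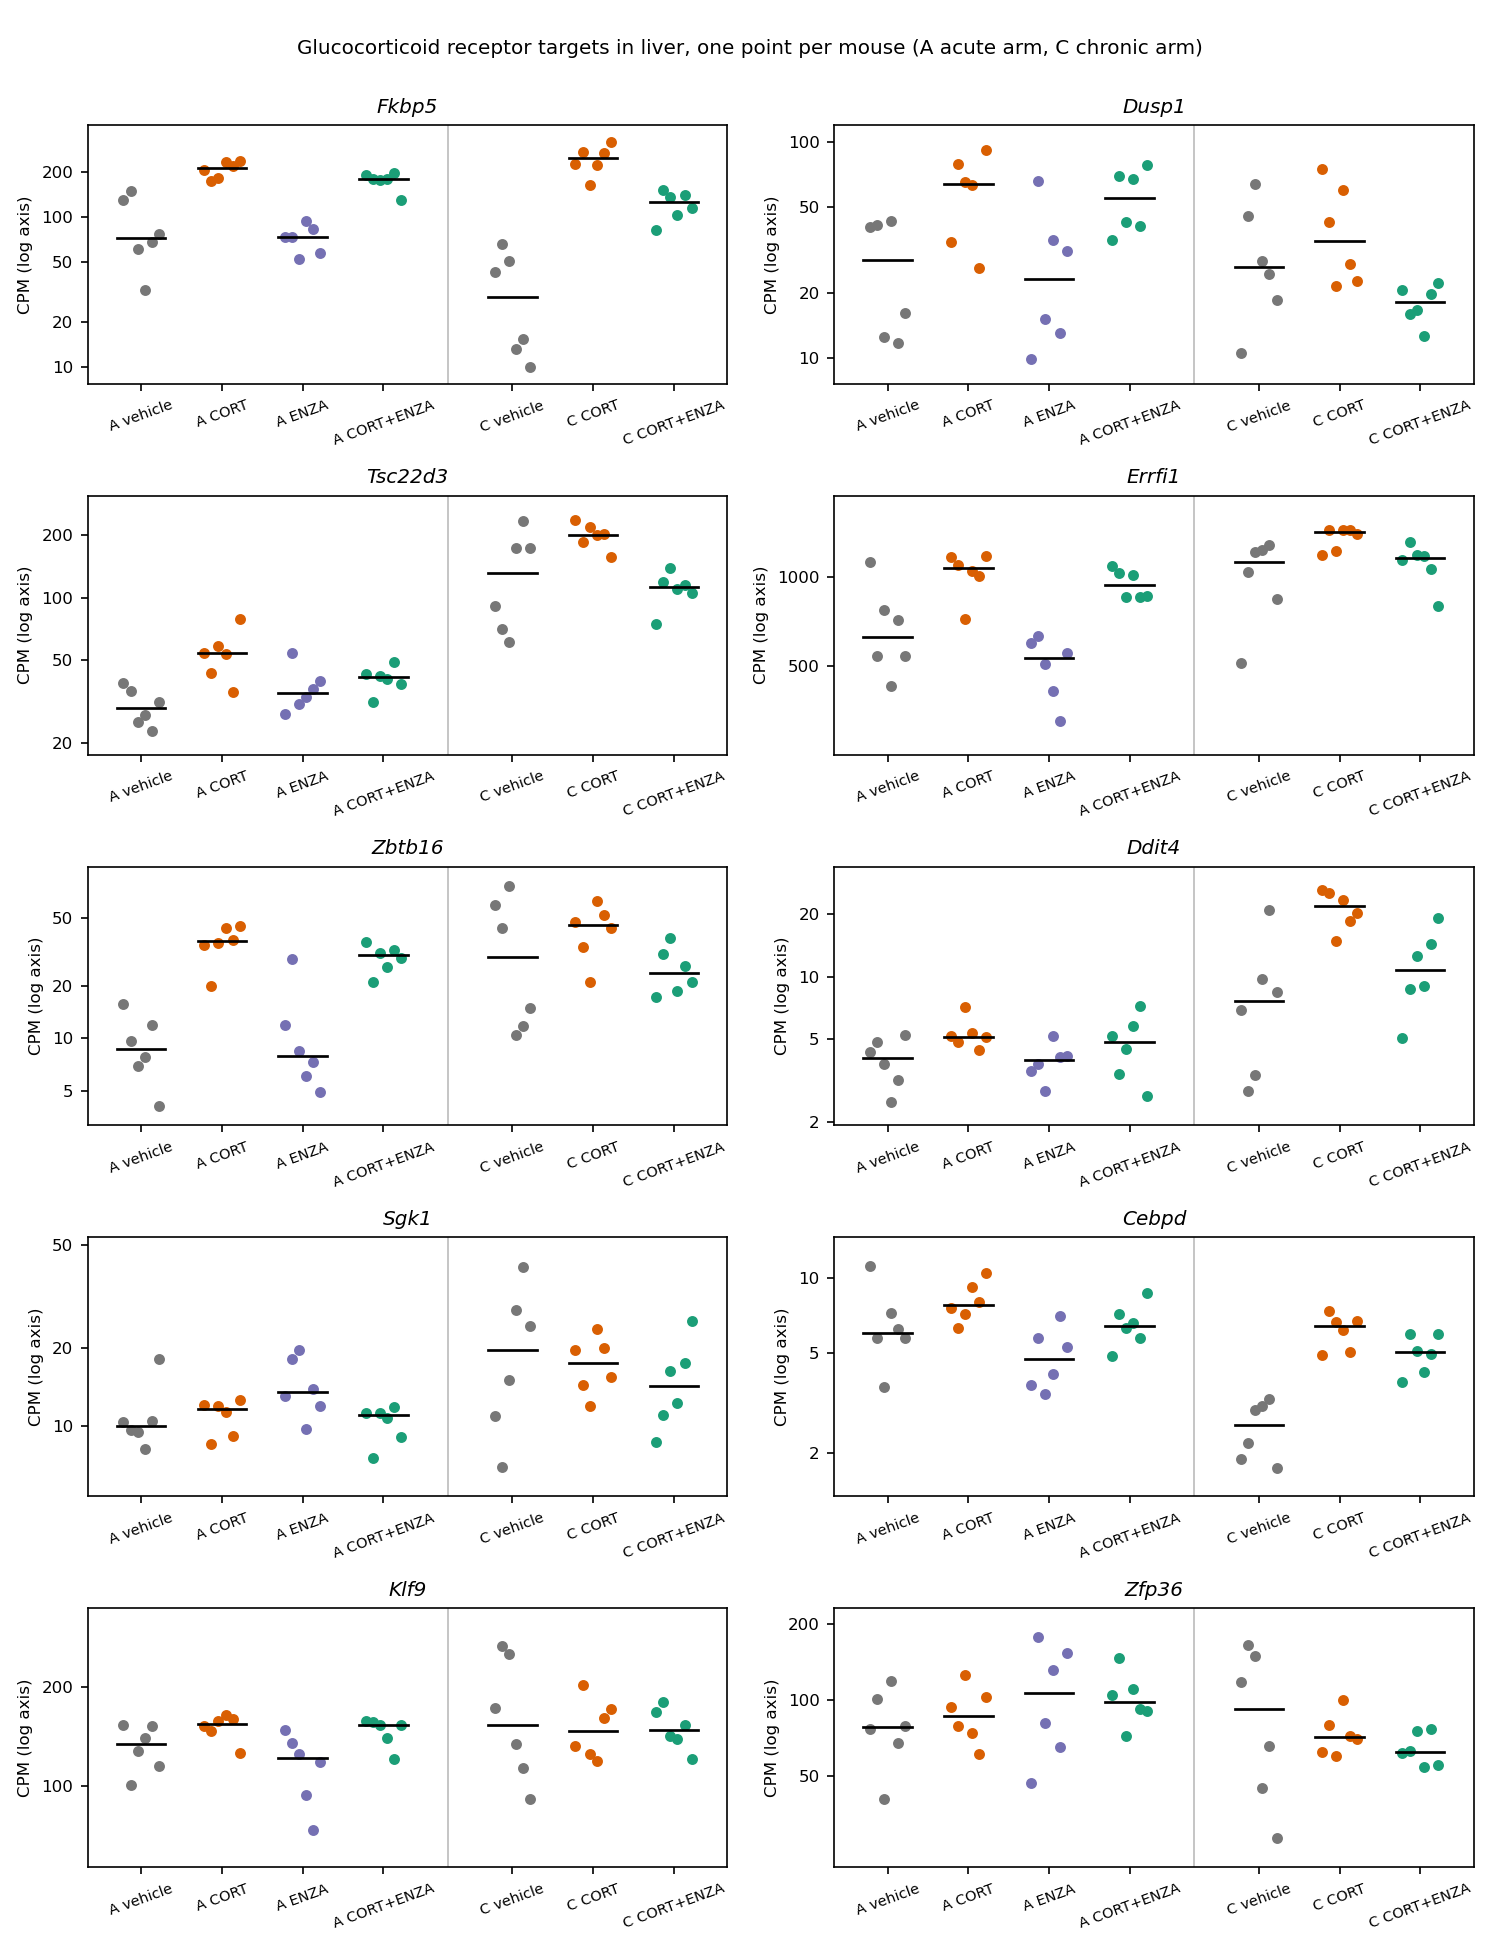
CPM (log axis) of the 10 genes in each mouse, 1 point per mouse and a line at the group median, with the 4 acute groups left and the 3 chronic groups right of the vertical line in each panel. Fkbp5 lies between 172 and 235 CPM in the acute CORT mice and between 32.7 and 149 CPM in the acute vehicle mice, and its chronic vehicle mice form 2 clusters.

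Acute CORT against acute vehicle asked which of the genes respond to the hormone itself. The co-chaperone gene Fkbp5, the anti-inflammatory gene Tsc22d3 and the transcription factor gene Zbtb16 rose, 3 of 10 genes, where 0.947% of the 13733 genes tested were higher; none of the 10 fell. The log2 fold change was above 0 for 9 of the 10, with a median of 0.508 over the 10 and -0.009 over all genes. For Zbtb16 the lowest, median and highest CPM were 4.09, 8.74 and 15.8 in vehicle mice and 20.1, 36.4 and 44.7 in CORT mice. Every CORT mouse lay above every vehicle mouse, and the log2 fold change was 1.94 ± 0.35 (SE; adjusted p = 0.00547). For Fkbp5 the values were 32.7, 72.2 and 149 CPM in vehicle mice and 172, 211 and 235 CPM in CORT mice, again without overlap. Its log2 fold change was 1.26 ± 0.24 (adjusted p = 0.00595), but with only the vehicle and CORT libraries in the fit the adjusted p was 0.0734. Tsc22d3 stood at 22.99, 29.5 and 39.0 CPM in vehicle mice and at 35.3, 54.0 and 78.5 CPM in CORT mice. The lowest CORT mouse lay below the highest vehicle mouse, and the log2 fold change was 0.83 ± 0.17 (adjusted p = 0.0092).

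The other 7 genes did not pass the test in acute CORT mice. Errfi1, the EGF receptor inhibitor, came nearest, with 431, 629 and 1122 CPM in vehicle mice and 721.9, 1070 and 1181 CPM in CORT mice. Vehicle mice L1A and L13A lay above the lowest CORT mouse, L14A. Its log2 fold change was 0.60 ± 0.18 (adjusted p = 0.0973), and 0.79 without vehicle mouse L1A (adjusted p = 0.0112). Dusp1, the MAP kinase phosphatase, had a larger but more variable log2 fold change of 1.12 ± 0.45 (adjusted p = 0.249). Its CPM spread from 11.8 to 43.0 in vehicle mice and from 26.1 to 91.8 in CORT mice. Ddit4 (0.42 ± 0.20), Cebpd (0.29 ± 0.20), Klf9 (0.20 ± 0.13), Zfp36 (0.15 ± 0.29) and Sgk1 (-0.01 ± 0.18) had smaller log2 fold changes. For Sgk1, whose window holds the full palindrome printed above, the 95% interval of the log2 fold change ran from -0.38 to 0.35.

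ENZA alone against acute vehicle moved none of the 10 genes past the threshold in edgeR, where 1.31% of all genes were called. None passed in DESeq2, where 240 of 13733 genes were higher and 148 lower, or in limma-voom, with 193 and 115. At an unadjusted edgeR p under 0.05, 3 of the 10 passed, and 2002 of all 13733 genes did. The 3 were Errfi1 with a log2 fold change of -0.44 ± 0.18 (adjusted p = 0.257), Cebpd with -0.43 ± 0.21 (adjusted p = 0.333) and Sgk1 with 0.39 ± 0.18 (adjusted p = 0.31). The median over the 10 was 0.015. Fkbp5 stood at 52.3, 73.3 and 93.3 CPM in ENZA mice, within the range of the vehicle mice.

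Acute CORT+ENZA against acute CORT asked whether the antiandrogen alters the hormone response. None of the 10 genes passed the test in edgeR, where 0.175% of all genes did. None passed in DESeq2, where 49 of 13733 genes were higher and 10 lower, or in limma-voom, with 42 and 8. At an unadjusted edgeR p under 0.05, 1 of the 10 passed, and 696 of all 13733 genes did. The log2 fold change was above 0 for 1 of the 10, Zfp36 at 0.20 ± 0.28, and the median was -0.142. Tsc22d3 had the largest difference relative to its error, -0.40 ± 0.17 (adjusted p = 0.902), with 31.6, 41.5 and 49.3 CPM in CORT+ENZA mice. For Fkbp5 the 95% interval ran from -0.74 to 0.24, and for Zbtb16 from -0.99 to 0.40.

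On an ENZA background CORT raised 3 of 10 genes, Fkbp5, Zbtb16 and Errfi1, where 1.08% of all genes were higher in acute CORT+ENZA than in acute ENZA mice. Fkbp5 stood at 130, 178 and 195 CPM in CORT+ENZA mice, every one above the ENZA mice, and its log2 fold change was 1.27 ± 0.24 (adjusted p = 0.00661). Errfi1 stood at 328, 532 and 634 CPM in ENZA mice and at 856, 942 and 1089 CPM in CORT+ENZA mice. These groups did not overlap either, and the log2 fold change was 0.91 ± 0.18 (adjusted p = 0.00872). Zbtb16 stood at 4.90, 7.89 and 28.8 CPM in ENZA mice and at 21.3, 30.3 and 36.2 CPM in CORT+ENZA mice, with 1 ENZA mouse, L11A, inside the range of the treated mice. Its log2 fold change of 1.39 ± 0.35 (adjusted p = 0.0414) rose to 1.93 without mouse L11A (adjusted p = 0.000525). The call was lost, at adjusted p of 0.0503 to 0.097, without any single one of the other ENZA mice, of the CORT+ENZA mice, or of vehicle mice L7A and L25A. Tsc22d3, which rose with CORT alone, had a log2 fold change of 0.14 ± 0.17 here (adjusted p = 0.792).

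The difference of the CORT effect with and without ENZA was tested directly as an interaction. It was called for none of the 10 genes and for 0% of all genes in edgeR, DESeq2 and limma-voom, with 501 of 13733 genes at an unadjusted p under 0.05. Tsc22d3 was the gene of the 10 under that unadjusted limit, with a difference of -0.69 ± 0.24 (edgeR adjusted p = 0.994). Against acute vehicle, CORT+ENZA mice had 2 of 10 genes higher, where 1.42% of all genes were. These were Fkbp5, with a log2 fold change of 1.01 ± 0.24 (adjusted p = 0.0221), and Zbtb16, with 1.65 ± 0.35 (adjusted p = 0.0125). The Fkbp5 call was lost without vehicle mouse L25A, at a log2 fold change of 0.95 (adjusted p = 0.058), while Errfi1 was called at 0.67 without vehicle mouse L1A (adjusted p = 0.0322).

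Chronic CORT against chronic vehicle asked how the genes stand after long exposure. Fkbp5, the mTOR inhibitor gene Ddit4 and the transcription factor gene Cebpd rose, 3 of 10 genes, where 9.04% of all 13099 genes were higher, and none fell. The median log2 fold change was 0.394 over the 10 and -0.013 over all genes. Fkbp5 stood at 10.0, 29 and 66.1 CPM in vehicle mice and at 163, 246 and 314 CPM in CORT mice. No CORT mouse came near a vehicle mouse, and the change was 7.39-fold, a log2 fold change of 2.89 ± 0.40 (adjusted p = 0.000108). Cebpd, lowly expressed throughout, stood at 1.76, 2.59 and 3.29 CPM in vehicle mice and at 4.93, 6.44 and 7.35 CPM in CORT mice. These groups did not overlap, and the log2 fold change was 1.28 ± 0.17 (adjusted p = 5.18e-05). Ddit4 stood at 2.83, 7.65 and 20.9 CPM in vehicle mice and at 14.8, 21.7 and 25.9 CPM in CORT mice, with vehicle mouse 14 inside the CORT range. Its log2 fold change was 1.29 ± 0.39 (adjusted p = 0.0274). That call was lost without CORT mouse 1 (adjusted p = 0.0573), CORT mouse 2 (0.0512), vehicle mouse 10 (0.0564) or vehicle mouse 12 (0.0515).

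The choice of vehicle mice set much of the chronic answer. Without vehicle mice 10 to 12, 4 of 10 genes were higher in CORT mice, where 10.3% of all genes were: Fkbp5 (log2 fold change 4.27 ± 0.25, adjusted p = 9.69e-08), Zbtb16 (1.81 ± 0.32, adjusted p = 0.00144), Cebpd (1.20 ± 0.21, adjusted p = 0.00115) and Zfp36 (0.70 ± 0.22, adjusted p = 0.0368). Without vehicle mice 13 to 15, 4 of 10 were higher, where 5.91% of all genes were: Fkbp5 (2.19 ± 0.23, adjusted p = 4e-05), Ddit4 (2.29 ± 0.38, adjusted p = 0.00162), Tsc22d3 (1.42 ± 0.18, adjusted p = 0.000127) and Cebpd (1.38 ± 0.20, adjusted p = 0.000526). In that fit 2 of 10 were lower, where 5.58% of all genes were: Klf9 (-0.60 ± 0.17, adjusted p = 0.0322) and Zfp36 (-0.97 ± 0.16, adjusted p = 0.000936). Zfp36 thus changed in opposite directions with the 2 sets, and with all 6 vehicle mice its log2 fold change was -0.37 ± 0.32 (adjusted p = 0.464). Fkbp5 and Cebpd were the 2 genes called higher with all vehicle mice and with either set. Only the vehicle group changed between these fits; Ddit4 without mice 10 to 12 was at 0.73 ± 0.36 (adjusted p = 0.17).

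**Figure D3:**
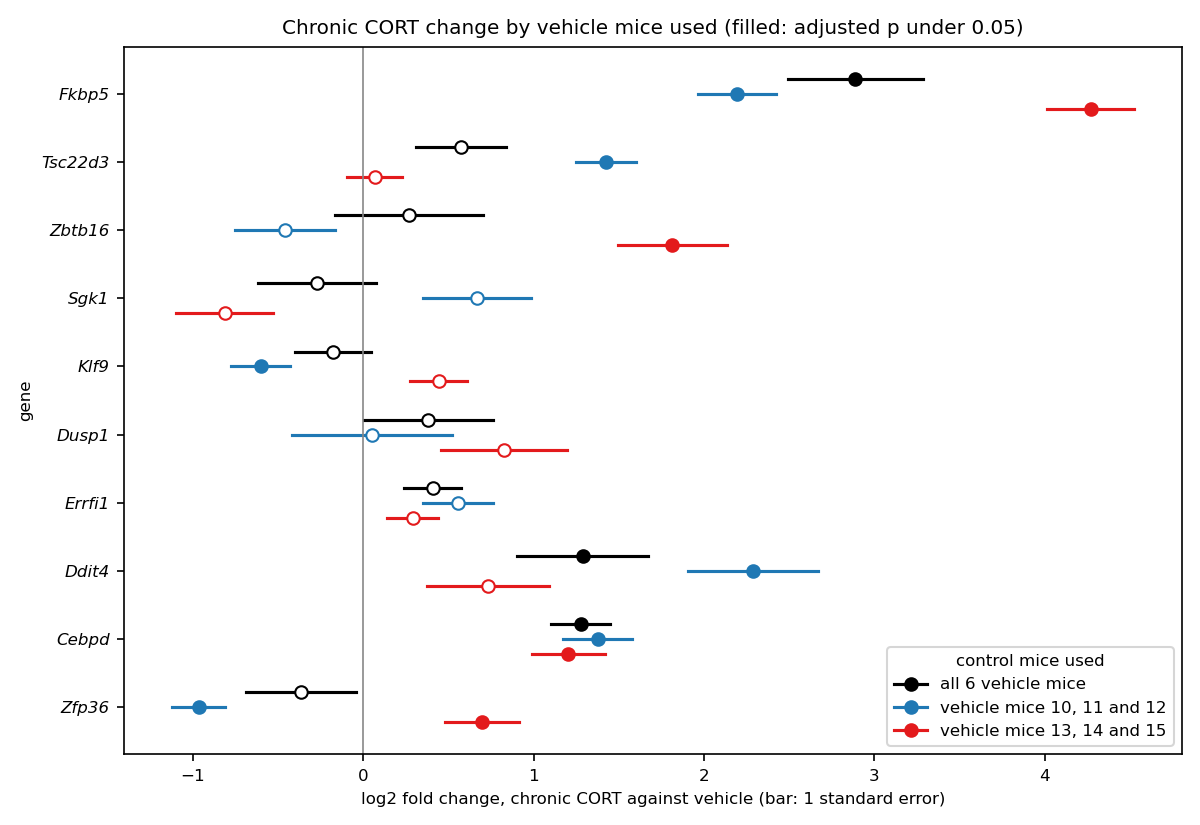
Log2 fold change of the 10 genes in chronic CORT against chronic vehicle mice, with bars of 1 standard error, for all 6 vehicle mice and for each set of 3; filled points have an adjusted p under 0.05. Cebpd lies at 1.20 to 1.38 in all 3 fits, while Zfp36 lies at 0.70 with vehicle mice 13 to 15 and at -0.97 with vehicle mice 10 to 12.

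Tsc22d3 and Zbtb16, both higher after acute CORT, did not pass the test in the chronic arm with all vehicle mice. Tsc22d3 stood at 61.5, 132 and 233 CPM in vehicle mice and at 156, 200 and 236.5 CPM in CORT mice, a log2 fold change of 0.58 ± 0.26 (adjusted p = 0.143), and of 0.81 without vehicle mouse 14 (adjusted p = 0.0314). Zbtb16 stood at 10.5, 29.4 and 75.9 CPM in vehicle mice and at 21.3, 45.5 and 62.2 CPM in CORT mice. All CORT mice lay within the vehicle range, and the log2 fold change was 0.27 ± 0.43 (adjusted p = 0.713). Errfi1 (0.41 ± 0.17), Dusp1 (0.38 ± 0.38), Klf9 (-0.18 ± 0.22) and Sgk1 (-0.27 ± 0.35) were not called either.

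Chronic CORT+ENZA against chronic CORT does not set any mouse against the vehicle mice. The vehicle mice still enter the low-count filter, the TMM scaling and the shared estimate of spread. All 10 genes had lower mean levels with ENZA, with a median log2 fold change of -0.531 over the 10 and -0.003 over all genes. Tsc22d3 fell past the threshold, 1 of 10 genes, where 4.86% of all genes were lower. Tsc22d3 stood at 156, 200 and 236.5 CPM in CORT mice and at 74.6, 113 and 138 CPM in CORT+ENZA mice, every one below the CORT mice. Its log2 fold change was -0.85 ± 0.27 (adjusted p = 0.0452). The call was lost, at adjusted p of 0.0612 to 0.0894, without CORT mouse 1, 2, 3, 25 or 26 or CORT+ENZA mouse 4, 5, 16, 17 or 18. Fkbp5 stood at 163, 246 and 314 CPM in CORT mice and at 81.4, 124 and 151 CPM in CORT+ENZA mice, also without overlap. The log2 fold change was -1.01 ± 0.37 (adjusted p = 0.0853), and without vehicle mouse 15 it was called (adjusted p = 0.0478). Dusp1 stood at 21.5, 34.8 and 75.0 CPM in CORT mice and at 12.7, 18.2 and 22.2 CPM in CORT+ENZA mice, with a log2 fold change of -1.20 ± 0.39 (adjusted p = 0.0523). It was called without CORT mouse 3 (adjusted p = 0.0382) or 27 (0.0437) or vehicle mouse 10 (0.0324) or 12 (0.033). Ddit4, at 14.8, 21.7 and 25.9 CPM in CORT mice and 5.07, 10.8 and 19.1 CPM in CORT+ENZA mice, had -0.89 ± 0.38 (adjusted p = 0.139).

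How many of these genes were called depended on which libraries entered the fit. With only the 12 libraries of the comparison in the fit, 4 of 10 were lower, where 5.43% of all genes were: Fkbp5, Tsc22d3, Dusp1 and Ddit4. Without vehicle mice 10 to 12, 4 of 10 were lower, where 6.16% of all genes were: Fkbp5 (adjusted p = 0.000689), Tsc22d3 (0.000425), Zbtb16 (0.0427) and Dusp1 (0.0155). Without vehicle mice 13 to 15, 3 of 10 were lower, where 5.38% of all genes were: Fkbp5 (adjusted p = 0.000975), Tsc22d3 (0.000632) and Ddit4 (0.0426). The log2 fold change of Fkbp5 stayed at -1.01 in both. In bulk liver, fewer cells of a type and less RNA per cell cannot be told apart. Hepatocyte markers moved in the same comparison: 3 of 6 were lower with all libraries in the fit, where 4.86% of all genes were. Their summed CPM was 83290 to 118900 in CORT mice and 53480 to 76530 in CORT+ENZA mice. Most of this sum is the albumin gene Alb, with a median of 74200 CPM over the chronic libraries. The 6 markers include Tat, which is also on the list of other receptor-induced genes below. The part of these markers in the result was not tested.

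**Figure D4:**
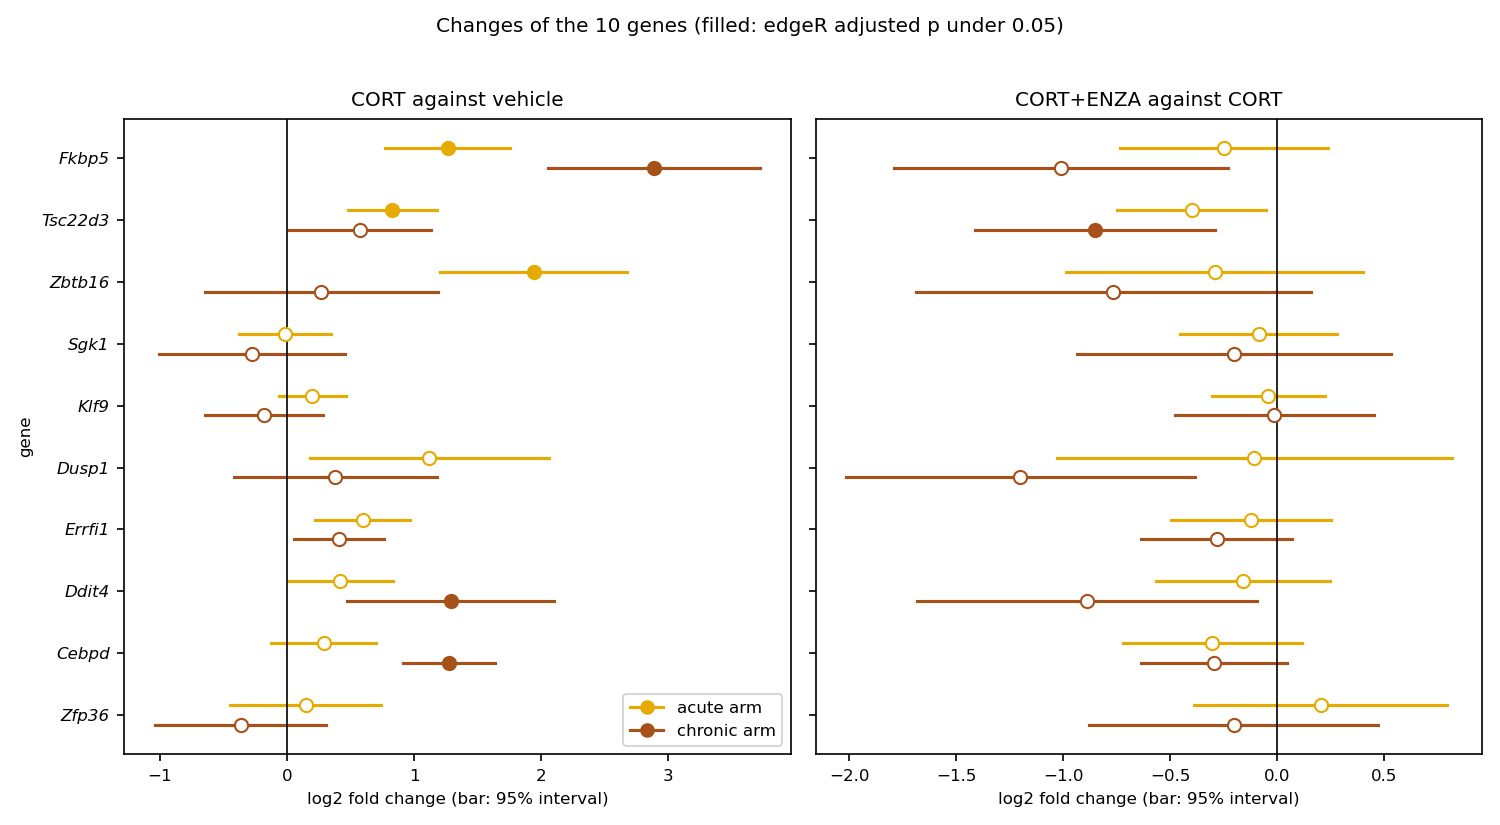
Log2 fold change of the 10 genes with 95% intervals for CORT against vehicle (left) and CORT+ENZA against CORT (right) in the acute and chronic arms; filled points have an adjusted p under 0.05. The chronic CORT+ENZA points all lie below 0, down to -1.20 for Dusp1, and the filled one is Tsc22d3 at -0.85.

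Chronic CORT+ENZA mice still had 2 of 10 genes higher than chronic vehicle mice, where 10.3% of all genes were higher. Fkbp5 stood above every vehicle mouse, with a log2 fold change of 1.88 ± 0.38 (adjusted p = 0.00232), and so did Cebpd, with 0.98 ± 0.17 (adjusted p = 0.000474). Without vehicle mice 10 to 12, 3 of 10 genes were higher, where 11.7% of all genes were, and 2 were lower, Tsc22d3 and Sgk1, where 8.56% of all genes were. Without mice 13 to 15, 4 of 10 were higher, where 6.31% of all genes were, and 3 were lower, Zbtb16, Klf9 and Zfp36, where 5.04% of all genes were. The Fkbp5 and Cebpd calls held with either set of vehicle mice: Fkbp5 was at 3.25 without mice 10 to 12 and 1.18 without mice 13 to 15, and Cebpd at 0.91 and 1.08. Zbtb16 turned with the set, at 1.04 without mice 10 to 12 (adjusted p = 0.0289) and -1.23 without mice 13 to 15 (adjusted p = 0.0126). Tsc22d3 turned the other way, at -0.79 (adjusted p = 0.00182) and 0.57 (adjusted p = 0.0383).

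The CORT effect in the chronic arm minus that in the acute arm was higher for 2 of 10 genes, where 3.73% of all 14138 genes were higher. In log2 units the difference was 1.65 ± 0.45 for Fkbp5 (adjusted p = 0.0216), and Cebpd differed by 1.02 ± 0.28 (adjusted p = 0.0191). Arm and extraction kit cannot be told apart, although each effect is taken within its arm. Fkbp5 differed by 3.03 without chronic vehicle mice 10 to 12 (adjusted p = 1.83e-06) and by 0.94 without mice 13 to 15, where it was not called (adjusted p = 0.126). Cebpd differed by 0.94 without mice 10 to 12 (adjusted p = 0.0584), by 1.11 without mice 13 to 15 (adjusted p = 0.0334), and by 0.81 without acute vehicle mouse L1A (adjusted p = 0.0533). Zbtb16 had a smaller effect in the chronic arm, by -1.64 ± 0.57 (adjusted p = 0.0813), and was called without acute ENZA mouse L11A (0.0499) or chronic vehicle mouse 13 (0.0423) or 14 (0.0458). It lay at -0.11 without vehicle mice 10 to 12 (adjusted p = 0.926) and at -2.38 without mice 13 to 15 (adjusted p = 0.00318). Ddit4 was called at 1.38 without chronic vehicle mouse 14 (adjusted p = 0.0221), and was at 0.91 ± 0.43 otherwise (adjusted p = 0.225). The effect of adding ENZA to CORT differed between the arms for none of the 10 genes in edgeR, where 1.27% of all genes were called. None was called in DESeq2, where 235 of 14138 genes were higher and 84 lower, or in limma-voom, with 260 and 200. At an unadjusted edgeR p under 0.05 none of the 10 passed, and 1914 of all 14138 genes did. All 10 differences lay below 0, from -1.13 ± 0.61 for Dusp1 to about 0 for Klf9.

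Other genes known to be induced by the receptor were counted from a list of 20. In acute CORT mice 4 of 20 rose, against 0.947% of all genes, and none fell: Cdkn1a, the p21 cell cycle inhibitor (log2 fold change 2.65 ± 0.37), Lpin1, a phosphatidic acid phosphatase and coactivator (1.74 ± 0.27), Hif3a, a hypoxia-inducible factor subunit (2.03 ± 0.42), and Angptl4, an inhibitor of lipoprotein lipase (1.01 ± 0.23). Their median over the list was 0.281. In chronic CORT mice 4 of 19 tested rose, Per1, Il6ra, Mt2 and Angptl4, against 9.04% of all genes, and 1 fell, Pdk4, against 9.29% of all genes. Without vehicle mice 10 to 12, 5 of 20 were higher, against 10.3% of all genes, and 1 was lower, against 8.1%. Without mice 13 to 15, none was higher, against 5.91% of all genes, and 2 were lower, against 5.58%, Irs2 at -1.07 and Sesn1 at -0.63. Adding ENZA to chronic CORT lowered 2 of 19, against 4.86% of all genes: Lpin1 (-1.32 ± 0.33, adjusted p = 0.0137) and Il6ra, the interleukin 6 receptor gene (-0.60 ± 0.19, adjusted p = 0.0496), and both were also called with either set of vehicle mice.

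Genes that set receptor and hormone supply were counted from a list of 12. Nr3c1, the glucocorticoid receptor gene, had a log2 fold change of 0.08 ± 0.12 in acute CORT mice (adjusted p = 0.826). In chronic CORT mice Nr3c1 fell by 0.27 ± 0.08 (adjusted p = 0.0297), with -0.11 without vehicle mice 10 to 12 (adjusted p = 0.41) and -0.40 without mice 13 to 15 (adjusted p = 0.00775). Acute CORT lowered 2 of 12, against 0.67% of all genes: the mineralocorticoid receptor gene Nr3c2 (-0.81 ± 0.17, adjusted p = 0.0124) and Serpina6, which encodes the corticosteroid-binding globulin of plasma (-0.73 ± 0.19, adjusted p = 0.0452). Chronic CORT raised 4 of 12, against 9.04% of all genes, and lowered 2, against 9.29%. The counts were 4 higher and 1 lower without vehicle mice 10 to 12, against 10.3% and 8.1% of all genes. They were 3 higher and 2 lower without mice 13 to 15, against 5.91% and 5.58%. Hsd11b1, whose enzyme regenerates active glucocorticoid in liver, rose by 0.62 ± 0.12 (adjusted p = 0.00135). Serpina6 fell by 2.15 ± 0.22 (adjusted p = 3.79e-06), and both calls held with either set of vehicle mice. With ENZA added to chronic CORT, 4 of 12 rose, against 6.99% of all genes, and 1 fell, against 4.86%. Hsd11b1 fell by 0.56 ± 0.12 (adjusted p = 0.0045) and Serpina6 rose by 0.91 ± 0.21 (adjusted p = 0.00983). The others that rose were Hsp90ab1 (0.46 ± 0.08, adjusted p = 0.000454), Akr1d1 (0.57 ± 0.11, adjusted p = 0.00169) and Hsp90aa1 (0.72 ± 0.16, adjusted p = 0.00627). While Hsd11b1 and Serpina6 moved back toward vehicle, Akr1d1 moved further away, as chronic CORT had also raised it (0.67 ± 0.11, adjusted p = 0.000319).

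Within groups the 10 genes did not move as 1 block. Deviations of log2 CPM from the group means were correlated over the libraries of an arm as a description, and all genes of a library share its depth and RNA. In the acute arm (24 libraries) the median Pearson r over 45 pairs was 0.122, from -0.446 for Klf9 and Ddit4 to 0.774 for Dusp1 and Zfp36, a pair of inflammatory brakes. In the chronic arm (18 libraries) it was 0.109, but the range was wider, from -0.803 for Tsc22d3 and Klf9 to 0.902 for Fkbp5 and Zfp36. Fkbp5 also had r = 0.852 with Zbtb16 and 0.851 with Klf9, and Sgk1 had r = 0.869 with Ddit4. These chronic values carry the split of the vehicle mice. Outside the 10, the closest within-group patterns to Fkbp5 were those of Uap1 (r = 0.849), Ube2g2 (0.811), Rab3gap1 (0.801), Rrm2 (0.799) and Wbp1l (0.795) in the acute arm, and of St3gal5 (0.952), Slc2a1 (0.913), Efhd2 (0.909), Pim3 (0.905) and Ivns1abp (0.896) in the chronic arm.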

How the data were processed

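For each arm the authors deposited unnormalized counts of reads per gene, made from stranded, mRNA-enriched 100 bp paired-end libraries of snap-frozen liver, per the labels. Per the submitters' processing notes, reads were handled with HTSeq 0.12.4, STAR 2.7.3a, MultiQC and FastQC, on build mm10. The sources used here give neither the annotation release nor the strand setting of HTSeq. Per the labels, acute RNA was extracted with a Qiagen kit and chronic RNA with a NucleoSpin kit. The 5 HTSeq summary rows were dropped, and 55394 of 55573 IDs matched a symbol. Exons of Cebpd overlap those of Spidr on the other strand over 15% of their bases, so its counts are uncertain if strand was not used; the overlap is 3.6% for Zfp36 (Gm44710) and 0.332% for Dusp1 (Ergic1).

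The tests were run with edgeR 4.0.16 under R 4.3.3: filterByExpr (minimum count 10, minimum total 15), TMM, a robust quasi-likelihood fit of group means to all libraries of an arm, and Benjamini-Hochberg adjustment over all genes tested (13733 acute, 13099 chronic). Genes were called at an adjusted p under 0.05. Differences between arms came from 1 model of 42 libraries and 14138 genes. Standard errors were derived from the F statistic, with 95% intervals from t. The code was tested on simulated counts. No 2 libraries of a group agreed within sampling noise: the lowest chi-square per degree of freedom over 105 pairs was 10.6. Alternatives were DESeq2 1.42.0, limma-voom 3.58.1, RLE scaling, other filters, fits on the compared groups alone, a block of consecutive mouse numbers in the acute arm, and leaving out libraries. The named genes were all 10 targets in every comparison, up to 4 called genes of each list with the smallest p, receptor and enzyme genes fixed by name (1 of them is not reported here), and those most like Fkbp5. The members, lists and tests were chosen with earlier results of these data known. Clock genes and the 2 sets of vehicle mice were chosen after their values were seen.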

Additional observations from a re-analysis of the deposited data

Results flagged for a closer look

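In 5 of 70 gene and group combinations, 1 mouse lay apart from the other 5 by a gap past Dixon's 95% limit for 6 values; chance alone gives about 1 in 20. Vehicle mouse L31A of the acute arm had 18.2 CPM of Sgk1, and the next mouse 10.5. Acute CORT mouse L14A had 721.9 CPM of Errfi1, with the next at 1012, and 7.11 CPM of Ddit4, with the next at 5.37. Acute ENZA mouse L11A had 28.8 CPM of Zbtb16, with the next at 11.9. Acute CORT+ENZA mouse L36A had 129.7 CPM of Fkbp5, with the next at 174.5.

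The CORT effect differed between the arms, by a direct test with all libraries, for Fkbp5 (by 1.65 on the log2 scale) and for Cebpd (by 1.02). Fkbp5 was not called without chronic vehicle mice 13 to 15 or with no low-count filter. Cebpd was not called without chronic vehicle mice 10 to 12 or without acute vehicle mouse L1A. Arm and extraction kit cannot be told apart.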

How the results depend on the processing

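Of 3790 recomputed values, 3689 kept their side of the threshold with no turn of a called direction. Another 44 lost the call, 53 gained it, and 4 turned direction with a call in one of the fits. The 3689 include 113 values, uncalled in both fits, that changed sign. The number of the 10 genes called in chronic CORT+ENZA against CORT (1) was 2 with DESeq2, 4 with limma-voom and 0 with no low-count filter. It was 2 with a stricter filter, 4 with only the compared groups, and 0 without vehicle mouse 11 and CORT+ENZA mouse 18. Every call was lower. In the same order, 820 and 972 of 13099, 458 of 27099, 615 of 12120, 693 of 12762 and 747 of 13181 genes were lower. The number called was 4 without chronic vehicle mice 10 to 12, 3 without mice 13 to 15, and 3 without the 5 chronic libraries with Dbp under 10 CPM. All of these were lower, where 838 of 13598, 726 of 13505 and 601 of 13353 genes were. These last 3 alternatives were chosen after seeing the data. In that order, the number in chronic CORT+ENZA against vehicle (2) was 5 (3 higher and 2 lower), 7 (4 and 3) and 7 (4 and 3), where 1590 and 1164 of 13598, 852 and 680 of 13505, and 1097 and 835 of 13353 genes were higher and lower, respectively. That of the CORT effect between arms (2) was 1 (higher), 4 (2 higher and 2 lower) and 4 (2 and 2). There 742 and 457 of 14700, 370 and 295 of 14665, and 353 and 312 of 14586 genes were higher and lower, respectively. The 1 gene was Fkbp5, and the 4 were Zbtb16, Klf9, Ddit4 and Cebpd both times. With no filter it was 1, Cebpd (higher), where 305 of 31405 genes were higher. Chronic CORT against vehicle (3) had 6 (4 higher and 2 lower) without mice 13 to 15 and 6 (4 and 2) without the low-Dbp libraries. There 798 and 753 of 13505, and 860 and 961 of 13353 genes were higher and lower, respectively. Acute CORT+ENZA against vehicle (2) had 1 with no filter and 1 with only the compared groups. Both were higher, where 158 of 29712 and 127 of 13225 genes were.

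Leaving out 1 library at a time gave 3 to 4 genes for acute CORT against vehicle, 2 to 3 for acute CORT+ENZA against ENZA, 1 to 3 for acute CORT+ENZA against vehicle, 2 to 4 for chronic CORT against vehicle, 0 to 2 for chronic CORT+ENZA against CORT, 2 in every refit for chronic CORT+ENZA against vehicle, and 1 to 4 for the CORT effect between arms. The other 4 comparisons stayed at 0. Direction turned for Zfp36 in chronic CORT against vehicle without mice 10 to 12 (0.696), for Zbtb16 in chronic CORT+ENZA against vehicle without mice 10 to 12 (1.043), and for Tsc22d3 there without mice 13 to 15 (0.571) and without the low-Dbp libraries (0.588). The cause was not tested.

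Mouse numbers do not repeat between groups. A replicate block of consecutive mouse numbers in the acute arm gave 3 genes for CORT against vehicle and 2 for CORT+ENZA against ENZA, where Zbtb16 lost its call (adjusted p = 0.0519), and changed no other call of the 10 genes. Under RLE scaling none of 70 group levels moved by more than 1 SD. Depth limits Cebpd most, with 28 to 55 counts per chronic vehicle library.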

Other observations

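Immediate early genes, a class induced within minutes by growth signals and stress, were low in chronic CORT mice: 5 of 12 tested fell, where 9.29% of all genes did, and none rose. Without vehicle mice 10 to 12, 3 were lower, where 8.1% of all genes were, and 1 was higher, where 10.3% were. Without mice 13 to 15, 7 were lower, where 5.58% of all genes were, and none was higher, where 5.91% were. The zinc finger factor gene Egr1 fell by 5.26 ± 0.94 on the log2 scale, from a mean of 44.1 to 1.14 CPM, the nuclear receptor gene Nr4a1 fell by 3.32 ± 0.64, and the antiproliferative gene Btg2 fell by 1.90 ± 0.41. Btg2 was at -0.61 without vehicle mice 10 to 12 (adjusted p = 0.131) and at -2.58 without mice 13 to 15 (adjusted p = 4e-05). Egr1 and Nr4a1 were also called lower with either set of 3 vehicle mice, at -1.60 and -2.49 without mice 10 to 12 and at -6.20 and -3.84 without mice 13 to 15. Junb, picked out after its values were seen, turned with the set, at 1.16 without mice 10 to 12 (adjusted p = 0.0172) and -2.50 without mice 13 to 15 (adjusted p = 0.000142). Adding ENZA to chronic CORT raised 3 of 12, where 6.99% of all genes rose: Myc (2.75 ± 0.36), Klf6 (1.20 ± 0.26) and Jun (1.00 ± 0.27).

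The summed CPM of 10 Kupffer cell markers was 144 to 451 in chronic vehicle, 124 to 216 in chronic CORT and 178 to 786 in chronic CORT+ENZA mice. The 786 CPM was CORT+ENZA mouse 18 alone, with the next highest of that group, mouse 17, at 328 CPM. The 144 CPM was vehicle mouse 11 alone, with the next lowest, mouse 15, at 285 CPM.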
